A study of Mus musculus with 24 samples.

Results

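The mRNA of 10 cytokine receptor genes was followed in mature mouse B cells in which Spi1 (PU.1), Spib (SpiB) or both were targeted. The genes were Il4ra, Il5ra, Il9r, Il21r, Il2rg, Il13ra1, Il10ra, Ifngr1, Csf2rb and Csf2rb2. They were found by their symbols in the deposited count tables, which list 27179 genes, and all 10 were present. The RNA-seq series held 24 libraries, namely 2 biological replicates of every combination of 4 genotypes and 3 stages. The control mice (Cd23T/+) carried the Cd23-Cre transgene, a BAC in which regulatory sequences of Cd23 (Fcer2a) drive Cre from the transitional B cell stage on. PU.1 cKO mice (Spi1fl/fl Cd23T/+) carried in addition floxed alleles of Spi1, which encodes PU.1. SpiB KO mice (Spi1fl/fl Cd23+/+ Spib-/-) lacked Spib and carried the floxed Spi1 alleles but no Cre, and PU.1 SpiB DKO mice (Spi1fl/fl Cd23T/+ Spib-/-) carried all of these alleles. All mice were on the C57BL/6 background and 6 to 20 weeks old, and how many animals went into a library is not given in the sources used here. B cells of lymph nodes, sorted as CD3- B220+ CD138-, were taken naive or after 48 h of culture, and the culture held IL-4 together with either CD40L or LPS. The extraction note in the labels names the CD40L + IL-4 culture for every library, so the stage was read from the sample titles and the study's methods. Since both cultures held IL-4, no group separates the IL-4 signal from that of CD40L or LPS.

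Cytokine receptors of this group work as assemblies of chains at the cell surface. Il4ra encodes the IL-4 receptor alpha chain, which pairs with the common gamma chain (Il2rg) in the type I receptor for IL-4 and with the Il13ra1 product in the type II receptor for IL-4 and IL-13. The common gamma chain also serves the receptors for IL-9 (Il9r) and IL-21 (Il21r). Il5ra encodes the ligand-binding chain for IL-5 and signals together with the common beta chain, the Csf2rb product, which is shared with the receptors for IL-3 and GM-CSF. Csf2rb2 encodes a second mouse beta chain that is specific to IL-3. Il10ra and Ifngr1 encode the ligand-binding chains for IL-10 and IFN-gamma. The chains carry no kinase of their own and signal through JAK kinases and STAT factors, and SOCS proteins dampen the signal. In B cells IL-4 and IL-21 are known as helper T cell signals for class switching and plasma cell differentiation.

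The library totals ranged from 14231188 to 18194629 counts in naive cells, from 9598674 to 61640683 after CD40L + IL-4 and from 22757630 to 73658850 after LPS + IL-4. Levels are given as CPM, counts scaled to the size of each library and normalized over all 24 libraries. Spi1 fell in PU.1 cKO cells at every stage, with a log2 fold change of -1.54 in naive cells, -1.24 after CD40L + IL-4 and -0.63 after LPS + IL-4. In PU.1 SpiB DKO cells Spi1 changed by -0.63 in naive cells and by -1.73 after CD40L + IL-4, but after LPS + IL-4 it stood at 59.0 and 54.4 CPM against 69.4 and 60.3 CPM in control, which did not pass the test (log2 fold change -0.11, SE 0.10, edgeR adjusted p 0.448). In naive cells Spi1 stood at 109 and 118 CPM in PU.1 SpiB DKO libraries, between the 167 and 179 CPM of control and the 65.3 and 58.7 CPM of PU.1 cKO libraries, and the double mutants exceeded the single ones by 0.92 on the log2 scale (SE 0.11, edgeR adjusted p 0.000571). The tables count whole genes, so reads of the floxed exon cannot be separated from those of the exons that remain. In the study's own read coverage the floxed exon was in part still present in naive double mutants and was efficiently removed in either culture. Naive PU.1 SpiB DKO cells are therefore a model of incomplete PU.1 loss, which bears on each of their values. Spib was at 8.80 to 108 CPM in the libraries without SpiB and at 169 to 2387 CPM in the others. In naive PU.1 cKO libraries it was at 2387 and 2120 CPM against 1585 and 1395 CPM in control (log2 fold change 0.54, SE 0.11, edgeR adjusted p 0.0232). Fcer2a, the gene whose promoter drives Cre, was lower in every PU.1 SpiB DKO library than in the control libraries of its stage. B cell markers (10 genes) summed to 12620 to 13090 CPM in naive control and PU.1 cKO libraries, 11390 and 11360 CPM in SpiB KO and 10270 and 9787 CPM in PU.1 SpiB DKO libraries. The 11 T cell markers summed to 75.6 to 131 CPM in the naive libraries with SpiB and to 411 to 613 CPM in those without. Of these, Cd3d, Cd3e and Cd3g each stood at 1.31 CPM or less in all 8, and the markers that rose are counted below with Csf2rb2. In RNA from a cell population, fewer cells that express a gene and less RNA per cell cannot be told apart.

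A receptor gene counted as differentially expressed (DE) if edgeR's quasi-likelihood test gave a Benjamini-Hochberg adjusted p under 0.15 over all genes tested, the fold change was over 1.5 and the mean deposited log2 RPKM over the 8 libraries of the stage was above 0. All 10 receptor genes passed the filter on low counts at each stage. Il13ra1 in naive and LPS + IL-4 cells and Csf2rb2 in both cultures had a mean log2 RPKM below 0 and so could not be DE there. Standard errors of log2 fold changes are written SE. Groups of 2 libraries put the smallest p of an exact two-sided permutation test at 0.333, so p-values come from edgeR alone. The comparisons of PU.1 cKO, SpiB KO and PU.1 SpiB DKO cells with control share the same 2 control libraries within a stage. SpiB KO cells also differed from control in having no Cre and in carrying floxed Spi1. Effects of these cannot be told apart from those of SpiB loss.

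The genes lie on 7 chromosomes in GRCm38, and 2 pairs are close neighbours. Il4ra (chr7:125552271-125579474) and Il21r (chr7:125603252-125634397) are 23.8 kb apart, and Csf2rb2 (chr15:78282507-78305721) and Csf2rb (chr15:78325800-78351001) are 20.1 kb apart. Csf2rb and Csf2rb2 are close paralogs. Of the windows of 50 bases in the longest GENCODE vM21 transcript of Csf2rb, 18.4% occur unchanged in that of Csf2rb2, and 6.96% of the windows of 100 bases do. The authors kept uniquely mapped reads, so reads that lie wholly within such stretches counted for neither gene, and the split between both genes is uncertain. The span of Il13ra1 overlaps a lncRNA gene (Gm42406) and that of Il9r a pseudogene (Gm12109), and the counting is not stated to use strand. PU.1 and SpiB are ETS factors, which bind sites with a GGAA core. RefSeq promoter sequences (GRCm38) were at hand for 8 of the 10 genes, not for Il10ra and Csf2rb. Within the 250 bases before the annotated start, GGAA on either strand occurred in 5 of the 8, and it occurs in 93.4% of 32851 mouse promoters. The longer PU.1-type motif GAGGAAGT, searched on both strands, occurred in 0 of the 8 and occurs in 2.44% of all promoters. It contains GGAA, so its matches are also matches of the core. A match is a description of these letters and not evidence of binding. Printed here are the windows of Il4ra and Il5ra, whose mRNA fell in naive PU.1 SpiB DKO cells, and of Csf2rb2, whose mRNA rose there, 5′ to 3′ in the direction of the gene, with GGAA or its complement TTCC in capitals. They are Il4ra (chr7:125552021-125552270, plus strand), Il5ra (chr6:106749038-106749287, minus strand) and Csf2rb2 (chr15:78305722-78305971, minus strand).
Il4ra: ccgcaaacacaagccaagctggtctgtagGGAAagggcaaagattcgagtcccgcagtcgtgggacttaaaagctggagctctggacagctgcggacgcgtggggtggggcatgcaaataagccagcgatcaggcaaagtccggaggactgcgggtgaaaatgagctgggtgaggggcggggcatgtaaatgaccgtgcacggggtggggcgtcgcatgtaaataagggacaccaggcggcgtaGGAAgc
Il5ra: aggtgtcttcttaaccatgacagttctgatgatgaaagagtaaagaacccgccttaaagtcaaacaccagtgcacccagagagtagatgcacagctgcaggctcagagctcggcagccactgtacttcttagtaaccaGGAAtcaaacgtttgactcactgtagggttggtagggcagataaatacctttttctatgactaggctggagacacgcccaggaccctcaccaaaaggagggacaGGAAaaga
Csf2rb2: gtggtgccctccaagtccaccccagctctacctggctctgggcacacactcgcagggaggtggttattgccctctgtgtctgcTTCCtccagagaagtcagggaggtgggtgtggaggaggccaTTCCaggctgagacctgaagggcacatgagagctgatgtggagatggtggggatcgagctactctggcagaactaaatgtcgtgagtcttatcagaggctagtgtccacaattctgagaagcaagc
The Il4ra and Il5ra windows each held 2 matches, all on the strand of the gene, and the Csf2rb2 window held 2 on the other strand. The windows of Il9r, Il21r and Ifngr1 held 0, and those of Il9r and Il21r overlap the annotated span of the gene.

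The receptor genes differed widely in level in control cells, and their order differed between stages. By the deposited log2 RPKM, which accounts for gene length, Il2rg stood highest among them in naive cells (8.46 ± 0.01, SD, n = 2), followed by Il21r (7.31 ± 0.08), Il4ra (6.63 ± 0.26), Ifngr1 (6.36 ± 0.03) and Il10ra (6.09 ± 0.27). Il9r (4.01 ± 0.19) and Il5ra (2.99 ± 0.12) came next, and Csf2rb (1.61 ± 0.32) and Csf2rb2 (1.55 ± 0.55) did not differ beyond their spread. Il13ra1 was lowest at -2.99 ± 0.30, from 6 and 4 counts. After CD40L + IL-4, Il4ra led with 8.66 in both libraries, while the neighbours Il2rg (6.99 ± 0.39) and Il21r (6.90 ± 0.15) overlapped, as did Il9r (4.79 ± 0.17) and Ifngr1 (4.66 ± 0.27). After LPS + IL-4, where the values were normalized apart from the other stages, Il4ra (7.64 ± 0.17) again led, followed by Il21r (6.82 ± 0.02) and Il2rg (6.46 ± 0.00), and Il10ra (4.25 ± 0.29) and Ifngr1 (3.88 ± 0.30) overlapped.

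Control cells of both cultures had more Il4ra and less Il2rg, Ifngr1, Il10ra and Csf2rb2 than naive ones, while Il9r went in opposite directions. The CD40L + IL-4 counts were deposited apart from those of the other stages, and whether stages were sequenced together is not stated. A difference between sequencing batches therefore cannot be told apart from an effect of culture. Between CD40L + IL-4 and naive cells, 8 of the 10 genes passed an adjusted p of 0.15 and a fold of 1.5, 4 higher and 4 lower, against 48.8% of 13684 genes tested. Between LPS + IL-4 and naive cells 8 passed as well, 3 higher and 5 lower (63.9% of all genes), and between LPS + IL-4 and CD40L + IL-4 5 passed, 1 higher and 4 lower (41.2% of all genes). Il4ra was at 477 and 593 CPM in the naive control libraries, 1582 and 1814 after CD40L + IL-4 and 1031 and 969 after LPS + IL-4. It rose by 1.64 on the log2 scale in CD40L + IL-4 (SE 0.14, edgeR adjusted p 6.42e-09) and by 0.88 in LPS + IL-4 (SE 0.13, edgeR adjusted p 9.22e-06). Il9r, at 44.1 and 53.8 CPM in naive control cells, was at 98.8 and 79.2 CPM after CD40L + IL-4 and at 3.58 and 3.59 CPM after LPS + IL-4. This was a rise of 0.84 (SE 0.33, edgeR adjusted p 0.041) and a fall of -3.79 (SE 0.38, edgeR adjusted p 4.02e-08), and the cultures differed from each other by -4.63 (SE 0.39). The rise after CD40L + IL-4 was lost without the CD40L + IL-4 control replicate 1 (0.69, edgeR adjusted p 0.184) or the naive control replicate 1 (0.70, edgeR adjusted p 0.189).

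Il2rg fell from 604 and 593 CPM in naive control cells to 177 and 237 CPM after CD40L + IL-4 and 137 and 145 CPM after LPS + IL-4. Ifngr1 fell from 180 and 170 CPM to 49.5 and 61.2 CPM and to 34.1 and 25.9 CPM. Il10ra fell from 220 and 271 CPM to 56.7 and 75.2 CPM and to 72.9 and 57.1 CPM. In all 3 genes every cultured control library lay below both naive control libraries, with log2 fold changes between -1.56 and -2.58 (edgeR adjusted p at most 6.97e-06). Csf2rb2 fell from 16.6 and 9.59 CPM to 1.03 and 1.73 CPM after CD40L + IL-4 and to 2.67 and 2.29 CPM after LPS + IL-4. The pDC markers, genes of plasmacytoid dendritic cells, moved with it: the 7 genes summed to 240 to 392 CPM in naive control cells and to 73.4 to 97.5 CPM in the cultured ones, with 6 lower and 1 higher after CD40L + IL-4 and all 7 lower after LPS + IL-4. Their part in the fall of Csf2rb2 was not tested. Csf2rb rose after LPS + IL-4, from 15.9 and 11.7 CPM to 35.8 and 34.2 CPM (log2 fold change 1.32, SE 0.31, edgeR adjusted p 0.000952), and was at 13.6 and 22.8 CPM after CD40L + IL-4 (log2 fold change 0.37, edgeR adjusted p 0.353). The difference between the cultures (0.95, edgeR adjusted p 0.0168) was lost without the CD40L + IL-4 control replicate 1 (0.60, edgeR adjusted p 0.205). Il5ra rose by 0.60 after CD40L + IL-4 (edgeR adjusted p 0.0113), just over the fold threshold, and fell below that threshold with voom and quantile normalization (0.56), without the CD40L + IL-4 control replicate 2 (0.53) and without the naive control replicate 1 (0.50). Il13ra1 rose from 0.452 and 0.293 CPM to 4.73 and 5.40 CPM after CD40L + IL-4 and reached 24 and 85 counts after LPS + IL-4, from 6 and 4 counts in naive control cells (log2 fold changes 3.73 and 1.76, edgeR adjusted p 1.08e-05 and 0.0104). Il21r was lower in both cultures by -0.48 and -0.54, under the fold threshold.

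**Figure D1:**
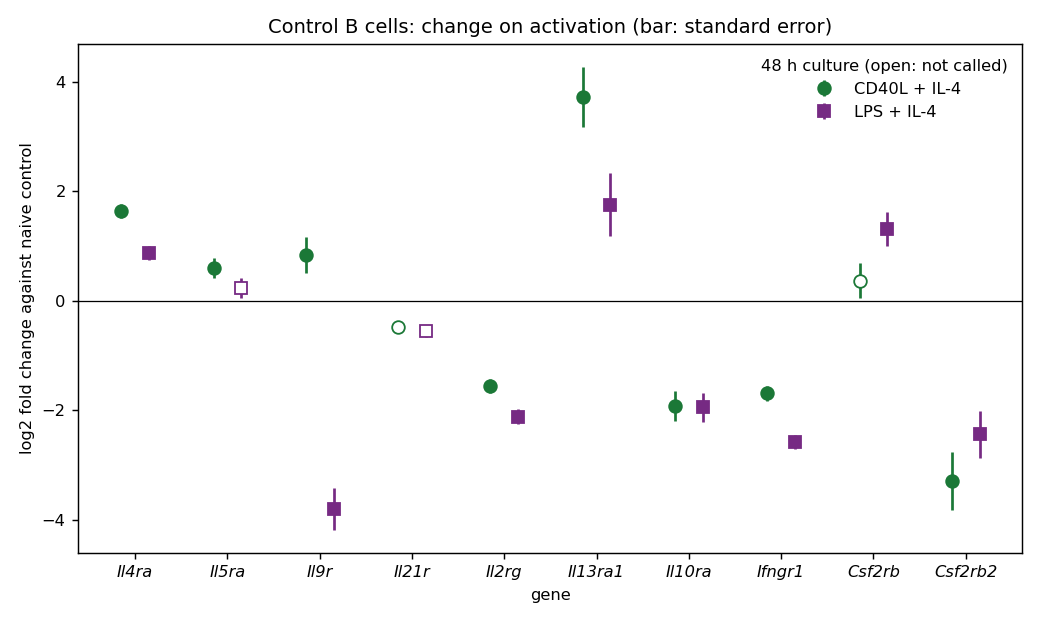
Log2 fold change of each receptor gene in control B cells after 48 h in CD40L + IL-4 (circles) or LPS + IL-4 (squares) against naive control cells, with the standard error as bars, filled where the adjusted p was under 0.15 and the fold over 1.5. Il9r stands at 0.84 in CD40L + IL-4 and at -3.79 in LPS + IL-4, while Il2rg, Il10ra, Ifngr1 and Csf2rb2 lie below 0 in both.

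In naive cells, Il4ra, Il5ra, Il9r and Csf2rb were lower in PU.1 cKO than in control cells. Csf2rb and Csf2rb2 were higher in SpiB KO than in control cells. In PU.1 cKO cells 4 of the 10 genes were DE, all lower, against 8.4% of 12500 genes tested, and the median log2 fold change of the 10 was -0.48 (-0.01 over all genes). In SpiB KO cells 2 were DE, both higher (6.35% of all genes, median -0.10 against 0.01). In PU.1 SpiB DKO cells 6 were DE, Il4ra, Il5ra, Il21r and Il10ra lower and Csf2rb and Csf2rb2 higher (14.1% of all genes, median -0.46 against 0.00). PU.1 SpiB DKO cells exceeded PU.1 cKO cells in Il9r, Csf2rb and Csf2rb2 (3 of 10 genes, 7.21% of all genes). They were below SpiB KO cells in Il10ra alone (1 of 10 genes, 1.97% of all genes), a call that was lost without any of these 4 libraries and in a fit of all 24 libraries (-0.73, edgeR adjusted p 0.196).

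After CD40L + IL-4, Il9r and Csf2rb were lower in PU.1 cKO than in control cells. PU.1 SpiB DKO cells had more Il4ra and Il5ra and less Il10ra than control cells. In PU.1 cKO cells 2 of the 10 genes were DE, both lower (9.36% of 12721 genes, median -0.43 against -0.01). In SpiB KO cells edgeR called 0 of the 10 (0.11% of all genes), 0 had an unadjusted p under 0.05, and DESeq2 and voom called 0. In PU.1 SpiB DKO cells 3 were DE, 2 higher and 1 lower (13.7% of all genes, median -0.23 against 0.00). Against PU.1 cKO cells 3 were DE in PU.1 SpiB DKO cells, Il5ra, Il9r and Csf2rb, all higher (3.01% of all genes). Il10ra was not DE there, but DESeq2 (-0.91, adjusted p 0.0879) and a fit of all 24 libraries (-0.92, edgeR adjusted p 0.0647) called it lower. So did fits without the filter on low counts or with the replicate block, while RLE scaling and voom did not. Against SpiB KO cells 2 were DE, Il5ra higher and Il10ra lower (11.4% of all genes).

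After LPS + IL-4, Il4ra rose and Il10ra fell in cells with floxed Spi1 and Cre, with or without Spib. In PU.1 cKO cells 4 of the 10 genes were DE, Il4ra higher and Il9r, Il10ra and Csf2rb lower (6.67% of 12445 genes, median -0.05 against -0.00178). In SpiB KO cells edgeR called 0 of the 10 (2.29% of all genes), 2 had an unadjusted p under 0.05, and DESeq2 and voom called 0. In PU.1 SpiB DKO cells 2 were DE, Il4ra higher and Il10ra lower (13.6% of all genes, median 0.17 against 0.01). PU.1 SpiB DKO cells exceeded PU.1 cKO cells in Il9r and Csf2rb (2 of 10 genes, 8.1% of all genes). Against SpiB KO cells 3 were DE, Il4ra higher and Il10ra and Csf2rb lower (8.09% of all genes).

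**Figure D2:**
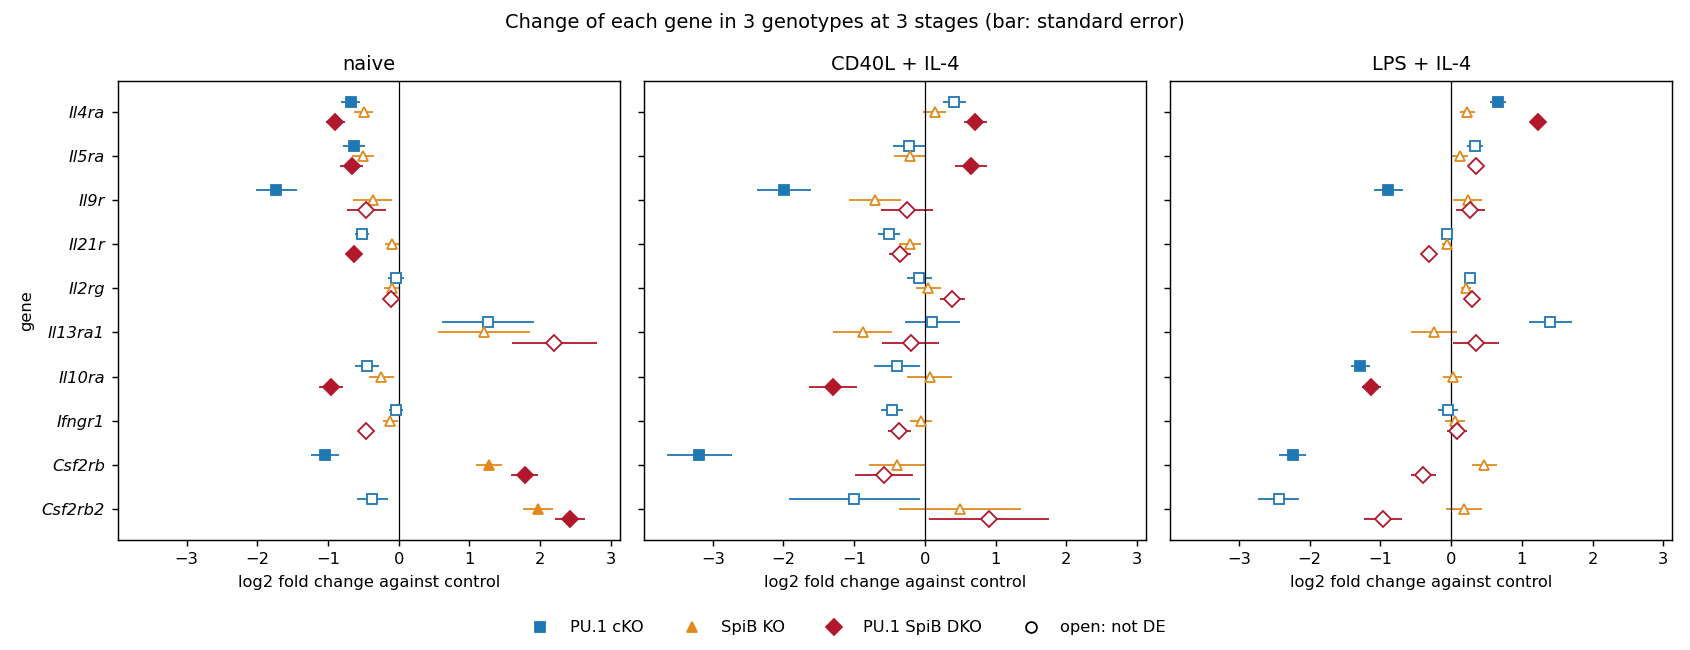
Log2 fold change against control of each receptor gene in PU.1 cKO, SpiB KO and PU.1 SpiB DKO cells at each stage, with the standard error as bars and filled points for DE genes. Il4ra lies left of 0 in all 3 genotypes in naive cells and right of 0 in all 3 in both cultures, and Csf2rb lies furthest left in PU.1 cKO cells after CD40L + IL-4, at -3.19.

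The interaction was tested as the log2 fold change of PU.1 SpiB DKO cells minus the sum of those of PU.1 cKO and SpiB KO cells. Control cells had Cre without floxed Spi1 and SpiB KO cells the reverse, so any effect of these alleles alone enters it. Csf2rb departed from the sum at every stage. Since Spi1 was less reduced in naive PU.1 SpiB DKO than in PU.1 cKO cells, the naive interaction does not set equal reductions of PU.1 side by side. After LPS + IL-4 Spi1 was also higher in PU.1 SpiB DKO than in PU.1 cKO cells (log2 fold change 0.52, SE 0.10, edgeR adjusted p 0.00943). The study's coverage showed the floxed exon removed there, but the interaction of that culture does not compare equal levels of Spi1 mRNA. In naive cells 1 of the 10 genes passed an adjusted p of 0.15 (0.936% of all genes), Csf2rb with 1.55 (SE 0.27, edgeR adjusted p 0.0621). Il9r did not pass there, but DESeq2 (1.64, adjusted p 0.00204), the replicate block (1.62, edgeR adjusted p 0.0569) and a fit of all 24 libraries (1.62, edgeR adjusted p 0.145) called it. So did the fit without the filter on low counts, while RLE scaling and voom did not. After CD40L + IL-4 2 passed (1.17% of all genes), Csf2rb with 3.01 (SE 0.61, edgeR adjusted p 0.086) and Il9r with 2.44 (SE 0.52, edgeR adjusted p 0.114). Il5ra did not pass in that culture, but the same 4 alternatives called it, among them DESeq2 (1.09, adjusted p 0.0969) and the fit of all 24 libraries (1.06, edgeR adjusted p 0.0428). After LPS + IL-4 1 passed (1.48% of all genes), Csf2rb with 1.38 (SE 0.25, edgeR adjusted p 0.0593), while 4 passed in the fit that blocks on the replicate number, which paired the libraries of this culture, with Il4ra (0.33, edgeR adjusted p 0.113), Il9r (0.94, edgeR adjusted p 0.103) and Csf2rb2 (1.28, edgeR adjusted p 0.121) in addition. Leaving out each library in turn left between 0 and 2 genes in naive cells, between 0 and 4 after CD40L + IL-4 and between 0 and 1 after LPS + IL-4, and for Csf2rb the edgeR adjusted p reached 0.295, 0.325 and 0.252 at the respective stages. The Il9r interaction after CD40L + IL-4 was lost without any library of that culture but the PU.1 cKO replicate 2 and the PU.1 SpiB DKO replicate 1. After LPS + IL-4 the Csf2rb interaction did not pass in a fit of all 24 libraries (1.33, edgeR adjusted p 0.362). At each stage Csf2rb was higher in PU.1 SpiB DKO cells than the sum of the single effects on the log2 scale gives.

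The effect of a genotype was also compared between stages in a fit of all 24 libraries. The effect on Il4ra was higher in culture than in naive cells for all 3 genotypes in both cultures, although that of SpiB KO in CD40L + IL-4 (0.64, edgeR adjusted p 0.138) did not pass with voom (0.56, adjusted p 0.28). All of these differences share the same 2 naive control libraries, so they are not independent of each other. For PU.1 cKO cells the effects on 2 of the 10 genes differed between CD40L + IL-4 and naive cells (9.05% of all genes) and on 3 between LPS + IL-4 and naive cells (6.34% of all genes), or 6 with the replicate number as a block. For SpiB KO cells they differed for 2 (2.15% of all genes) and 2 (5.65% of all genes), and for PU.1 SpiB DKO cells for 5 (16.8% of all genes) and 6 (29.6% of all genes). Between the 2 cultures, edgeR called 0 of the 10 for PU.1 cKO cells (3.09% of all genes) with 3 at an unadjusted p under 0.05, 1 called by voom and 3 called with the replicate number as a block (Il5ra 0.54, Il21r 0.41 and Il10ra -0.89), 0 for SpiB KO cells (0% of all genes) with 0 at an unadjusted p under 0.05 and 0 called by voom, and 2 for PU.1 SpiB DKO cells (28.6% of all genes).

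**Figure D3:**
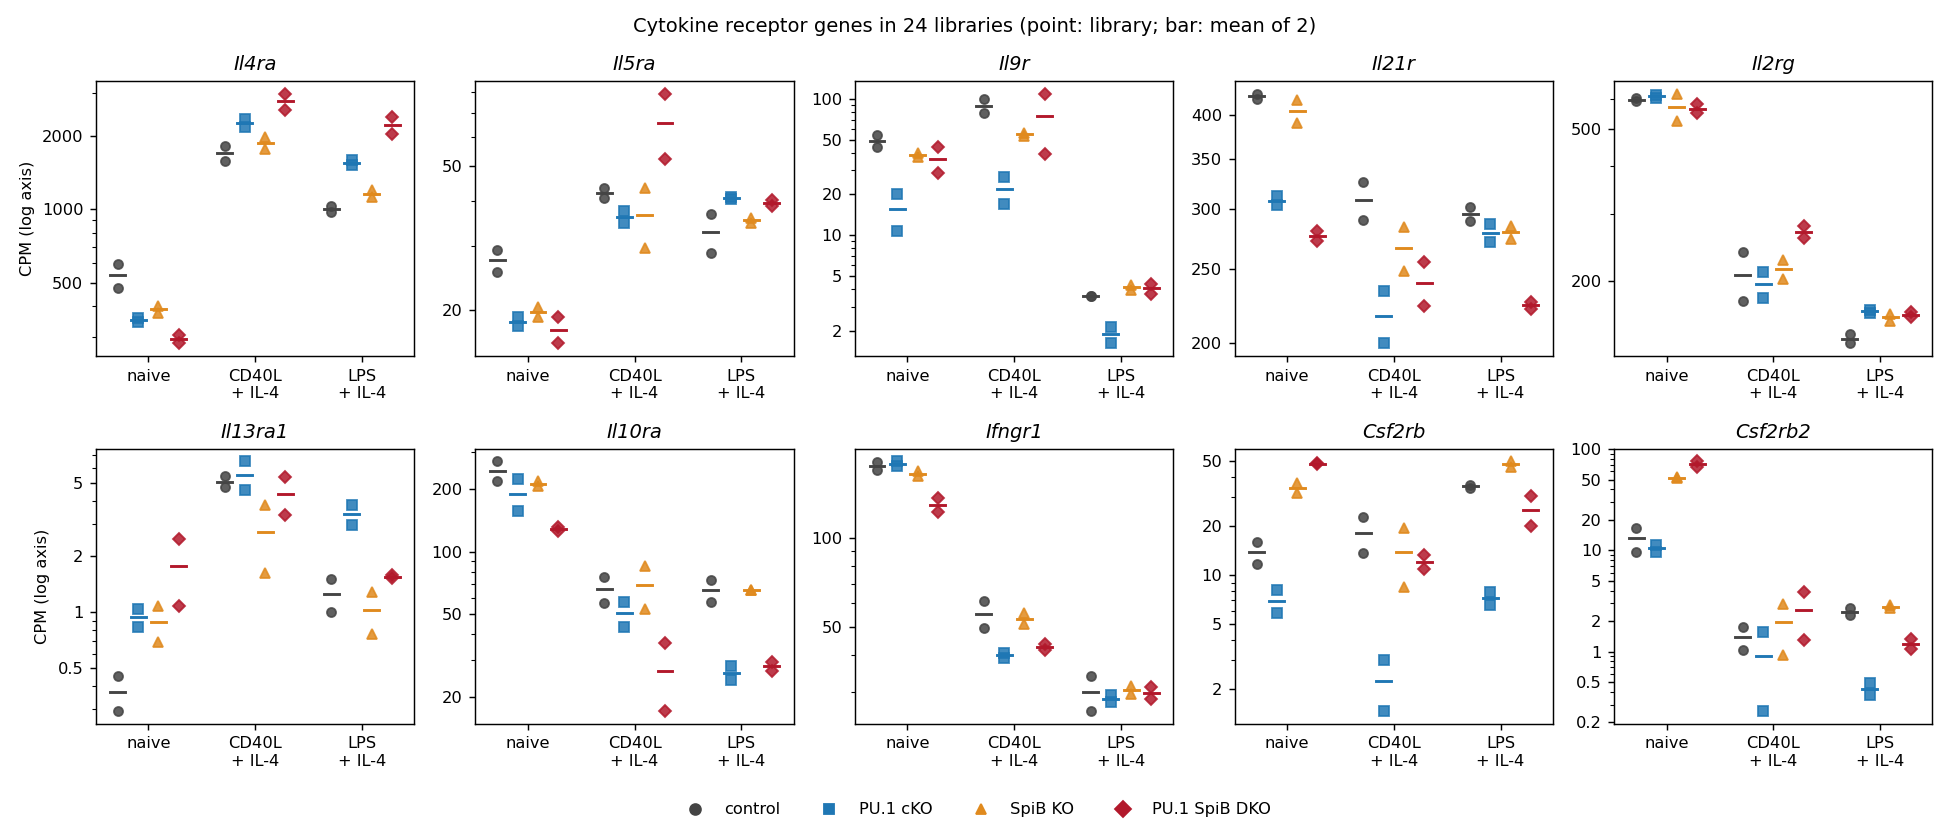
CPM of the 10 receptor genes on log axes, with a point for each library, a bar for the mean of the 2 libraries of a group, and the genotypes by colour and shape within each stage. Il4ra runs from 281 CPM in a naive PU.1 SpiB DKO library to 2978 CPM in a PU.1 SpiB DKO library after CD40L + IL-4.

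Il4ra, the IL-4 receptor alpha chain, fell in naive cells with floxed Spi1 and Cre, with or without Spib, and rose in PU.1 SpiB DKO cells of both cultures. Naive values were 477 and 593 CPM for control, 345 and 356 CPM for PU.1 cKO, 376 and 401 CPM for SpiB KO and 281 and 306 CPM for PU.1 SpiB DKO libraries. The control libraries stood apart from all 6 others, and the PU.1 SpiB DKO libraries were the lowest. The log2 fold change stood at -0.68 in PU.1 cKO (SE 0.13, edgeR adjusted p 0.0172) and -0.89 in PU.1 SpiB DKO (SE 0.13, edgeR adjusted p 0.00166), while -0.49 in SpiB KO was under the fold threshold. The call in PU.1 cKO was lost without the control replicate 2 (-0.47), which held the higher of the control values, and SpiB KO became DE without the control replicate 1 (-0.68). After CD40L + IL-4 it was at 1582 and 1814 CPM for control, 2344 and 2181 CPM for PU.1 cKO, 1976 and 1760 CPM for SpiB KO and 2978 and 2548 CPM for PU.1 SpiB DKO libraries. After LPS + IL-4 the values were 1031 and 969 CPM for control, 1584 and 1519 CPM for PU.1 cKO, 1192 and 1119 CPM for SpiB KO and 2381 and 2026 CPM for PU.1 SpiB DKO libraries. In both cultures PU.1 SpiB DKO cells held the highest values and did not overlap any other group. Its log2 fold change in PU.1 SpiB DKO was 0.72 after CD40L + IL-4 (SE 0.17, edgeR adjusted p 0.0169) and 1.22 after LPS + IL-4 (SE 0.11, edgeR adjusted p 5.12e-05). With voom and quantile normalization the first of these was 0.57, under the fold threshold. In PU.1 cKO it was 0.66 after LPS + IL-4 (SE 0.11, edgeR adjusted p 0.00368) and 0.42 after CD40L + IL-4 (edgeR adjusted p 0.161). Between culture and naive cells the effect of PU.1 SpiB DKO differed by 1.62 for CD40L + IL-4 (SE 0.19, edgeR adjusted p 1.17e-05) and by 2.05 for LPS + IL-4 (SE 0.19, edgeR adjusted p 1.97e-06). Plasma cell markers (7 genes) moved in the same direction in the cultures: they summed to 1592 and 1903 CPM in control and 3626 and 3894 CPM in PU.1 SpiB DKO cells after CD40L + IL-4, and to 1088 and 1226 CPM and 2344 and 2376 CPM after LPS + IL-4, with 6 of 7 and 5 of 6 tested genes DE higher. Their part in the rise of Il4ra was not tested.

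Il21r, the neighbour of Il4ra on chromosome 7 and the IL-21 binding chain, was lower in naive cells with floxed Spi1 and Cre and did not rise in the cultures. Its naive values were 420 and 427 CPM for control, 304 and 313 CPM for PU.1 cKO, 419 and 390 CPM for SpiB KO and 281 and 272 CPM for PU.1 SpiB DKO libraries. These 4 libraries (PU.1 cKO, PU.1 SpiB DKO) lay below the 4 others. The log2 fold change was -0.64 in PU.1 SpiB DKO (SE 0.10, edgeR adjusted p 0.00229), which voom put at -0.53, under the fold threshold, and -0.52 in PU.1 cKO, also under it. In the cultures its log2 fold changes ran from -0.51 to -0.05, with none DE. Il2rg, the common gamma chain, was at 524 to 621 CPM in all 8 naive libraries, and no genotype was DE for it at any stage. Its largest log2 fold change was 0.39 in PU.1 SpiB DKO after CD40L + IL-4 (edgeR adjusted p 0.179), at 258 and 278 CPM against 177 and 237 CPM in control, and it became DE without the control replicate 2 (0.62, edgeR adjusted p 0.0629).

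Il9r, the IL-9 binding chain, was DE lower in PU.1 cKO cells at all 3 stages and higher in PU.1 SpiB DKO than in PU.1 cKO cells at each. In naive cells it was at 44.1 and 53.8 CPM for control, 20.1 and 10.8 CPM for PU.1 cKO, 37.4 and 40.2 CPM for SpiB KO and 28.6 and 44.0 CPM for PU.1 SpiB DKO libraries. After CD40L + IL-4 it was at 98.8 and 79.2 CPM for control, 16.99 and 26.9 CPM for PU.1 cKO, 56.0 and 53.5 CPM for SpiB KO and 39.1 and 109 CPM for PU.1 SpiB DKO libraries. The PU.1 cKO libraries were the lowest of each stage, and after CD40L + IL-4 the PU.1 SpiB DKO libraries lay on either side of all control and SpiB KO libraries. Its log2 fold change in PU.1 cKO was -1.73 in naive cells (SE 0.29, edgeR adjusted p 0.00829) and -1.99 after CD40L + IL-4 (SE 0.38, edgeR adjusted p 0.00848). PU.1 SpiB DKO cells exceeded PU.1 cKO cells by 1.27 in naive cells (SE 0.29, edgeR adjusted p 0.0205) and by 1.74 after CD40L + IL-4 (SE 0.38, edgeR adjusted p 0.0468). Against control PU.1 SpiB DKO cells were not DE at any stage, although in naive cells they became DE lower without the PU.1 SpiB DKO replicate 2 (-0.81, edgeR adjusted p 0.12). The difference from PU.1 cKO cells after CD40L + IL-4 was lost without the PU.1 SpiB DKO replicate 2 (0.81, edgeR adjusted p 0.282), without which PU.1 SpiB DKO cells were DE lower than control (-1.16, edgeR adjusted p 0.0281), and without the PU.1 cKO replicate 1 (1.46, edgeR adjusted p 0.227). After LPS + IL-4 Il9r was at 1.61 to 4.42 CPM in all libraries, with 61 to 251 counts and a deposited log2 RPKM between -0.82 and 0.61. There PU.1 cKO cells were DE lower than control (-0.89, SE 0.21, edgeR adjusted p 0.0219), a call that a fit of all 24 libraries did not give (-0.90, edgeR adjusted p 0.242).

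Il5ra, the IL-5 binding chain, was lower than control in naive cells of every mutant genotype, though DE only in those with floxed Spi1 and Cre. It was highest in PU.1 SpiB DKO cells after CD40L + IL-4. Naive values were 25.5 and 29.3 CPM for control, 18.0 and 19.01 CPM for PU.1 cKO, 19.1 and 20.3 CPM for SpiB KO and 16.1 and 19.03 CPM for PU.1 SpiB DKO libraries. After CD40L + IL-4 it was at 40.8 and 43.6 CPM for control, 37.5 and 34.7 CPM for PU.1 cKO, 29.6 and 43.5 CPM for SpiB KO and 52.2 and 79.5 CPM for PU.1 SpiB DKO libraries. The naive control libraries lay above all 6 others, and the PU.1 SpiB DKO libraries after CD40L + IL-4 above all others of that culture. The log2 fold change was -0.63 in naive PU.1 cKO (SE 0.16, edgeR adjusted p 0.0453), -0.66 in naive PU.1 SpiB DKO (SE 0.16, edgeR adjusted p 0.0169) and 0.65 in PU.1 SpiB DKO after CD40L + IL-4 (SE 0.23, edgeR adjusted p 0.0816). In naive SpiB KO it was -0.50 (edgeR adjusted p 0.101), under the fold threshold, and -0.64 without the control replicate 1, over that threshold. The naive calls lay close to the thresholds: that in PU.1 cKO was lost without either PU.1 cKO library or the control replicate 2 (-0.49, edgeR adjusted p 0.176), and that in PU.1 SpiB DKO without the control replicate 2 (-0.53) or the PU.1 SpiB DKO replicate 1 (-0.56). The rise after CD40L + IL-4 was lost without the PU.1 SpiB DKO replicate 2 (0.33, edgeR adjusted p 0.497) and without either control library (edgeR adjusted p 0.292 and 0.154). It exceeded PU.1 cKO (0.88, edgeR adjusted p 0.0877) and SpiB KO cells (0.86, edgeR adjusted p 0.0357) there, both again not without the PU.1 SpiB DKO replicate 2 (0.54 and 0.52, edgeR adjusted p 0.543 and 0.302), the former also not without either PU.1 cKO library (edgeR adjusted p 0.262 and 0.383) and the latter not without the SpiB KO replicate 1 (0.61, edgeR adjusted p 0.246). After LPS + IL-4 the values were 28.7 to 41.2 CPM over the 8 libraries, with none DE.

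Csf2rb, the common beta chain, fell in PU.1 cKO cells at every stage. Its naive values were 15.9 and 11.7 CPM for control, 5.87 and 8.08 CPM for PU.1 cKO, 31.7 and 36.5 CPM for SpiB KO and 47.7 and 48.6 CPM for PU.1 SpiB DKO libraries. After CD40L + IL-4 it was at 13.6 and 22.8 CPM for control, 3.01 and 1.47 CPM for PU.1 cKO, 19.3 and 8.46 CPM for SpiB KO and 13.2 and 10.9 CPM for PU.1 SpiB DKO libraries. After LPS + IL-4 it was at 35.8 and 34.2 CPM for control, 7.84 and 6.57 CPM for PU.1 cKO, 45.8 and 49.6 CPM for SpiB KO and 19.9 and 30.4 CPM for PU.1 SpiB DKO libraries. The PU.1 cKO libraries were the lowest of every stage with no overlap, and the PU.1 SpiB DKO libraries were the highest in naive cells only. Its log2 fold change in PU.1 cKO was -1.04 in naive cells (SE 0.20, edgeR adjusted p 0.0154), -3.19 after CD40L + IL-4 (SE 0.46, edgeR adjusted p 0.00171) and -2.24 after LPS + IL-4 (SE 0.19, edgeR adjusted p 9.1e-05). PU.1 SpiB DKO cells exceeded PU.1 cKO cells by 2.83 in naive cells, 2.61 after CD40L + IL-4 and 1.85 after LPS + IL-4 (edgeR adjusted p 2.73e-05, 0.0165 and 0.000581), and the value after CD40L + IL-4 was lost without the PU.1 cKO replicate 2 (2.00, edgeR adjusted p 0.184), the deepest library of that culture. Against control PU.1 SpiB DKO cells were not DE in the cultures (-0.58 and -0.40, edgeR adjusted p 0.377 and 0.115), although without the PU.1 SpiB DKO replicate 2 they were DE lower after LPS + IL-4 (-0.75, edgeR adjusted p 0.00823). Macrophage and monocyte markers (11 genes) were lower in the same genotypes in the cultures, summing after CD40L + IL-4 to 43.6 and 57.9 CPM in control, 10.1 and 8.93 CPM for PU.1 cKO and 11.6 and 8.61 CPM for PU.1 SpiB DKO libraries. Between 5 and 8 of the 11 were at 0 in each library of that culture. After LPS + IL-4 they summed to 17.9 and 11.6 CPM for control, 5.83 and 3.51 CPM for PU.1 cKO and 6.90 and 5.73 CPM for PU.1 SpiB DKO libraries. In naive PU.1 cKO libraries they summed to 14.7 and 17.1 CPM, which overlapped the 27.3 and 14.7 CPM of control. Of the 6 tested there, 1 was DE lower and 0 higher, with a median log2 fold change of -0.71 (-0.01 over all genes). The part of these markers in the levels of Csf2rb was not tested.

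Csf2rb2, the IL-3 specific beta chain, and Csf2rb rose together in naive cells without SpiB. Csf2rb2 was at 16.6 and 9.59 CPM for control, 9.64 and 11.4 CPM for PU.1 cKO, 52.8 and 51.7 CPM for SpiB KO and 67.1 and 75.4 CPM for PU.1 SpiB DKO libraries. The 4 libraries without SpiB lay above the 4 with it for both genes. The log2 fold change of Csf2rb2 was 1.98 in SpiB KO (SE 0.21, edgeR adjusted p 0.000648) and 2.43 in PU.1 SpiB DKO (SE 0.21, edgeR adjusted p 9.43e-05), and that of Csf2rb 1.28 (SE 0.19, edgeR adjusted p 0.00356) and 1.78 (SE 0.19, edgeR adjusted p 0.00024). Markers of pDC, which carry B220 as B cells do, rose in the same libraries. The 7 genes summed to 392 and 240 CPM for control, 381 and 327 CPM for PU.1 cKO, 2369 and 1845 CPM for SpiB KO and 2828 and 2512 CPM for PU.1 SpiB DKO libraries, and all 7 were DE higher in both genotypes without SpiB. None of the 7 was at 0 in a naive library. Of the 11 T cell markers, whose sum was also higher in the libraries without SpiB, SpiB KO cells had 3 and PU.1 SpiB DKO cells 4 that were DE higher, among them Cd8a, Cd8b1 and Cd4 in both. Cd8a and Cd4 are also known on some dendritic cells. Macrophage and monocyte markers summed to 14.7 to 27.3 CPM with SpiB and 56.6 to 78.7 CPM without, with Cd68 at 5.93 to 12.2 CPM in the libraries with SpiB and 39.5 to 59.0 CPM in those without. Basophil, mast cell and eosinophil markers (9 genes) summed to 0.140 to 0.732 CPM with SpiB and 3.73 to 5.69 CPM without, with Mcpt8, Epx and Gata2 at 0 in all 8 naive libraries. The paper proposes that SpiB holds down genes of other lineages within B cells. Whether other cells were present or B cells expressed these markers was not tested. Neither was a part of either in the rise of Csf2rb and Csf2rb2. In the cultures, where pDC markers summed to 43.0 to 97.5 CPM, SpiB KO was not DE for either gene. Csf2rb2 was then at 0.257 to 3.85 CPM in all cultured libraries. After LPS + IL-4, where it could not be DE, its log2 fold change stood at -2.44 in PU.1 cKO (edgeR adjusted p 0.000645) and -0.97 in PU.1 SpiB DKO (edgeR adjusted p 0.0213), from 64 and 128 counts in control, 38 and 14 counts for PU.1 cKO and 46 and 45 for PU.1 SpiB DKO libraries.

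**Figure D4:**
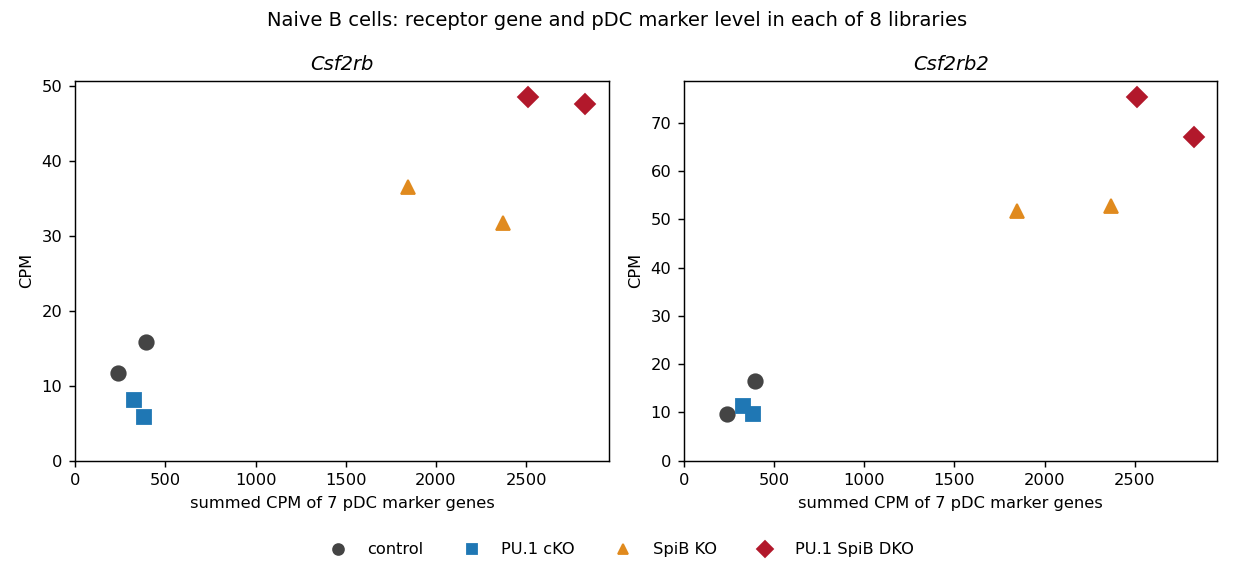
CPM of Csf2rb and Csf2rb2 in each of the 8 naive libraries against the summed CPM of 7 pDC marker genes in the same library, with genotypes by colour and shape. The SpiB KO and PU.1 SpiB DKO libraries lie at 1845 to 2828 CPM of pDC markers and above all control and PU.1 cKO libraries in both genes. The PU.1 cKO libraries lie lower in Csf2rb than control.

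Il10ra, the IL-10 binding chain, fell in PU.1 SpiB DKO cells at every stage. In naive cells it was at 220 and 271 CPM for control, 156 and 223 CPM for PU.1 cKO, 206 and 219 CPM for SpiB KO and 131 and 126 CPM for PU.1 SpiB DKO libraries. After CD40L + IL-4 it was at 56.7 and 75.2 CPM for control, 57.3 and 43.5 CPM for PU.1 cKO, 85.4 and 52.7 CPM for SpiB KO and 36.2 and 17.04 CPM for PU.1 SpiB DKO libraries. After LPS + IL-4 it was at 72.9 and 57.1 CPM for control, 28.1 and 24.1 CPM for PU.1 cKO, 65.2 and 65.2 CPM for SpiB KO and 29.4 and 26.6 CPM for PU.1 SpiB DKO libraries. PU.1 SpiB DKO libraries lay below all others in naive cells and after CD40L + IL-4, and together with PU.1 cKO libraries after LPS + IL-4. The log2 fold change in PU.1 SpiB DKO was -0.96 in naive cells (SE 0.17, edgeR adjusted p 0.00451), -1.30 after CD40L + IL-4 (SE 0.34, edgeR adjusted p 0.0278) and -1.13 after LPS + IL-4 (SE 0.14, edgeR adjusted p 0.000296). The call after CD40L + IL-4 was lost without the PU.1 SpiB DKO replicate 2 (-0.84, edgeR adjusted p 0.163). Against SpiB KO cells Il10ra changed there by -1.37 (SE 0.34, edgeR adjusted p 0.0269), which was lost without the SpiB KO replicate 1 (-0.98, edgeR adjusted p 0.189) or the PU.1 SpiB DKO replicate 2 (-0.92, edgeR adjusted p 0.152). In PU.1 cKO Il10ra fell by 1.29 on the log2 scale after LPS + IL-4 (SE 0.14, edgeR adjusted p 0.000344) but was not DE in naive cells (-0.44, edgeR adjusted p 0.157), where it became DE without the control replicate 1 or the PU.1 cKO replicate 2, or after CD40L + IL-4 (-0.39, edgeR adjusted p 0.525). The effect of PU.1 cKO did not pass the test of a difference between LPS + IL-4 and naive cells (-0.87, edgeR adjusted p 0.248), but passed with the replicate number as a block (-0.86, edgeR adjusted p 0.0796).

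Ifngr1, the IFN-gamma binding chain, was not DE in any genotype. Naive values were 180 and 170 CPM for control, 181 and 175 CPM for PU.1 cKO, 168 and 162 CPM for SpiB KO and 136 and 122 CPM for PU.1 SpiB DKO libraries. The PU.1 SpiB DKO libraries were the lowest, with a log2 fold change of -0.46 (SE 0.10, edgeR adjusted p 0.0118) under the fold threshold. After CD40L + IL-4 PU.1 cKO cells stood at -0.46 and, without the control replicate 1, at -0.60 and DE (edgeR adjusted p 0.0865). Il13ra1, the partner chain of Il4ra in the type II receptor, was at 4 to 38 counts in naive libraries. Its naive log2 fold change in PU.1 SpiB DKO was 2.20 (SE 0.60, edgeR adjusted p 0.0311), at 2.49 and 1.08 CPM against 0.452 and 0.293 CPM in control, and after LPS + IL-4 it was 1.40 in PU.1 cKO (SE 0.30, edgeR adjusted p 0.0157) from 226 and 144 counts, and both values stood under the RPKM threshold for DE. After CD40L + IL-4, at 1.63 to 6.50 CPM, no genotype was DE.

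Other chains and signal proteins of the same pathways were compared between PU.1 SpiB DKO and control cells, where 14.1%, 13.7% and 13.6% of all genes were DE in naive, CD40L + IL-4 and LPS + IL-4 cells. Of 32 other cytokine receptor chains, 19 to 21 were tested at a stage. In PU.1 SpiB DKO cells 7 were DE higher and 1 lower in naive cells, 2 higher and 4 lower after CD40L + IL-4 and 4 higher and 2 lower after LPS + IL-4, with medians of 0.53, -0.04 and 0.43 on the log2 scale against 0.00, 0.00 and 0.01 over all genes. In naive SpiB KO cells 4 of the 19 tested were DE higher and 1 lower, where 6.35% of all genes were DE. The pDC, T cell and macrophage markers were higher in the same naive libraries without SpiB, with the sums given above, and their part in these rises was not tested. Il2ra and Il2rb, which with the common gamma chain form the IL-2 receptor, were DE higher in both cultures. Il2rb was at 4.22 and 2.04 CPM in control and 43.0 and 41.2 CPM in PU.1 SpiB DKO cells after CD40L + IL-4 (log2 fold change 3.74, SE 0.39, edgeR adjusted p 0.00015), and at 2.50 and 5.36 CPM and 54.4 and 67.0 CPM after LPS + IL-4 (3.96, SE 0.36, edgeR adjusted p 5.75e-05). Il2ra rose by 2.03 and 0.94 on the log2 scale. Il6ra, the IL-6 binding chain, was DE lower at all 3 stages (-1.99 in naive cells and -1.19 after LPS + IL-4), from 9.73 and 7.94 CPM to 1.98 and 0.185 CPM after CD40L + IL-4 (-3.06, SE 0.64, edgeR adjusted p 0.0104). The largest naive rises were Il11ra1 (2.43) and Lifr (2.26), chains for IL-11 and LIF, and Lifr had the largest fall among these chains after CD40L + IL-4 (-5.22), while Ifngr2, the partner chain of Ifngr1, fell after LPS + IL-4 (-0.64).

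All 11 genes of JAK kinases and STAT factors were tested at each stage. In PU.1 SpiB DKO cells 1 was DE in naive cells and lower, 1 higher and 3 lower after CD40L + IL-4 and 1 higher and 2 lower after LPS + IL-4, with medians of -0.36, -0.46 and -0.04. Stat2, a factor of type I interferon signals, was DE lower at all 3 stages (-0.71, -1.57 and -0.64). Stat4 was DE higher in both cultures (0.80 and 0.97), and Jak2 was lower after CD40L + IL-4 (-1.42). Of 8 SOCS feedback inhibitors, edgeR called 0 in naive cells, where 2 had an unadjusted p under 0.05 and DESeq2 and voom called 0. It called 2 after CD40L + IL-4 and 5 after LPS + IL-4, all higher, with medians of -0.10, 0.25 and 0.86. Socs2 was at 211 and 198 CPM in control and 483 and 434 CPM in PU.1 SpiB DKO cells after CD40L + IL-4 (1.18, SE 0.21, edgeR adjusted p 0.00407), and at 32.3 and 30.4 CPM and 236 and 163 CPM after LPS + IL-4 (2.76, SE 0.20, edgeR adjusted p 1.55e-05). Socs3 rose by 0.63 and 1.09, and Socs1 by 1.13 after LPS + IL-4.

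Of 12 IL-4 response genes of B cells, 10 to 12 were tested at a stage, and in PU.1 SpiB DKO cells 1 was DE higher and 2 lower in naive cells, 4 higher and 1 lower after CD40L + IL-4 and 5 higher and 2 lower after LPS + IL-4, with medians of 0.22, 0.35 and 0.28. The changes went both ways. Fcer2a, which encodes CD23, fell by 2.99, 1.78 and 1.93 on the log2 scale at the 3 stages, and Ccl22, a chemokine gene, fell by 4.26 after LPS + IL-4. Gfi1, a transcriptional repressor, was at 3.96 and 3.26 CPM in control and 19.6 and 11.4 CPM in PU.1 SpiB DKO cells after CD40L + IL-4 (2.11, edgeR adjusted p 0.00151), and at 1.42 and 0.840 CPM and 15.5 and 12.1 CPM after LPS + IL-4 (3.77, edgeR adjusted p 1.22e-05). Xbp1, a factor of the plasma cell programme, rose by 0.96 and 1.56. Naive PU.1 SpiB DKO cells were DE higher for Gfi1 (1.55) and DE lower for Pdcd1lg2, a ligand of PD-1 (-0.77). Socs1 and Cish are on this list and on that of the SOCS inhibitors, and Xbp1 is on this list and on that of the plasma cell markers.

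**Figure D5:**
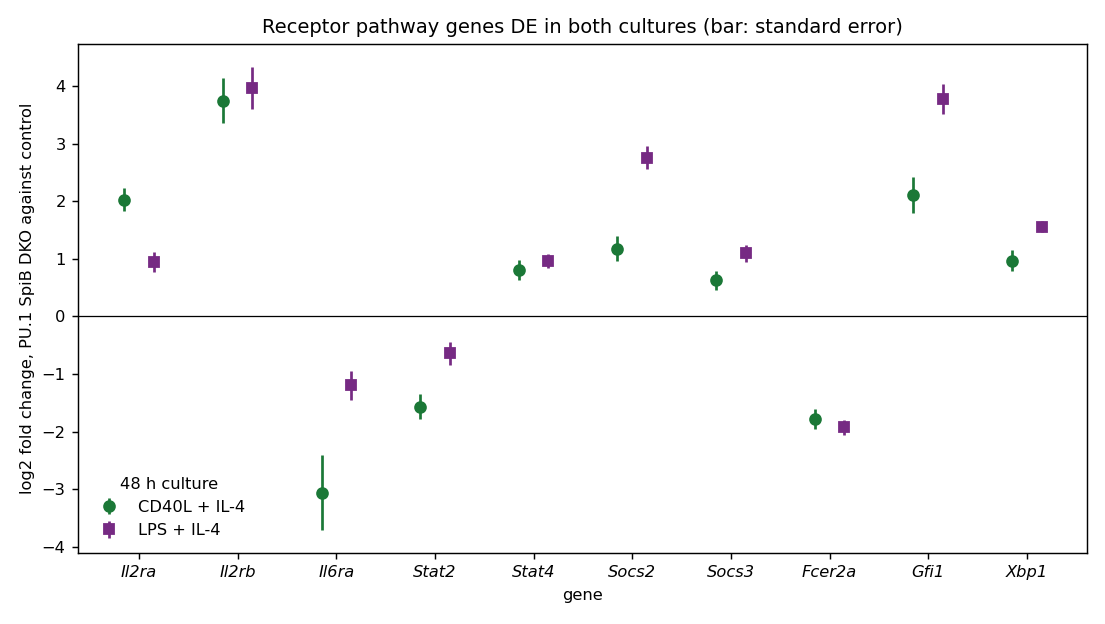
Log2 fold change of PU.1 SpiB DKO against control cells after CD40L + IL-4 (circles) and LPS + IL-4 (squares) for the 10 receptor pathway genes that were DE in the same direction in both cultures, with the standard error as bars. Il2rb stands highest in both cultures, at 3.74 and 3.96, and Il6ra, Stat2 and Fcer2a lie below 0 in both.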

How the data were processed

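Counts of reads per gene were the authors' deposited raw values. Per the study's methods, reads were mapped by Subread to GRCm38/mm10, only those with a unique position were used, and featureCounts assigned them to RefSeq exons (versions not given in the sources used here). The authors also deposited log2 RPKM, with the naive and CD40L + IL-4 libraries sharing 1 set of genes and LPS + IL-4 another, so these were taken as normalized apart. These log2 values served for the order of genes and a threshold on low expression.

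Genes with at least 0.5 CPM in 2 or more of the libraries fitted were tested with edgeR 4.0.16 (quasi-likelihood, TMM, R 4.3.3), with the 8 libraries of a stage in 1 fit and all 24 for comparisons between stages. Entries without a symbol (517, 0.162% of counts) stayed in the fits. Alternatives were RLE scaling, DESeq2 1.42.0, limma 3.58.1 voom with quantile normalization, no filter, a replicate block, other sets of libraries, other thresholds and leaving out each library. Replicates differed by more than sampling noise. Samples with the same number deviated together in LPS + IL-4 (6 of 6 correlations over 0.1, 0.386 to 0.514), which the labels do not state, and not in all pairs of the other stages (5 of 6 and 4 of 6). The edgeR p-values rest on a spread estimated over all libraries of a fit, with 2 libraries a group, and not on the spread within each group alone. The receptor genes and the lists were chosen with earlier results of these data known. Beyond the receptor genes, those named are Spi1, Spib, Fcer2a, list genes DE in PU.1 SpiB DKO cells in both cultures in the same direction and up to 2 of the largest rises and falls of a list and stage. Of the largest falls, 1 is not reported here. Single marker genes of other cell types (Cd3d, Cd3e, Cd3g, Cd4, Cd8a, Cd8b1, Cd68, Mcpt8, Epx, Gata2) were named after their values were seen.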

Additional observations from a re-analysis of the deposited data

Results flagged for a closer look

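These effects of a genotype differed between stages by a test of the difference itself in the fit of all 24 libraries (edgeR, adjusted p under 0.15), and each value is the log2 fold change against control at the stage named first minus that at the stage named after it. No group has more than 2 libraries, so single libraries were not tested for standing apart.

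Il4ra differed between CD40L + IL-4 and naive cells by 1.106 for PU.1 cKO (SE 0.189, edgeR adjusted p 0.00237), 0.6432 for SpiB KO (SE 0.188, edgeR adjusted p 0.138, and 0.28 with voom) and 1.622 for PU.1 SpiB DKO cells (edgeR adjusted p 1.17e-05). Between LPS + IL-4 and naive cells it differed by 1.311 (edgeR adjusted p 0.00126), 0.7159 (edgeR adjusted p 0.058) and 2.047 (edgeR adjusted p 1.97e-06) for the same genotypes, and between LPS + IL-4 and CD40L + IL-4 by 0.4255 for PU.1 SpiB DKO cells (edgeR adjusted p 0.132). Il5ra differed between CD40L + IL-4 and naive cells by 1.335 for PU.1 SpiB DKO cells (SE 0.265, edgeR adjusted p 0.00241), and between LPS + IL-4 and naive cells by 0.9443 for PU.1 cKO (edgeR adjusted p 0.0655) and 0.9445 for PU.1 SpiB DKO cells (edgeR adjusted p 0.0177).

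Csf2rb differed between CD40L + IL-4 and naive cells by -2.19 for PU.1 cKO (edgeR adjusted p 0.0179), -1.656 for SpiB KO (edgeR adjusted p 0.104) and -2.339 for PU.1 SpiB DKO cells (edgeR adjusted p 0.00218), and between LPS + IL-4 and naive cells by -2.236 for PU.1 SpiB DKO cells (edgeR adjusted p 0.00152). Csf2rb2 differed between LPS + IL-4 and naive cells by -2.063 for PU.1 cKO (edgeR adjusted p 0.102), -1.785 for SpiB KO (edgeR adjusted p 0.126) and -3.452 for PU.1 SpiB DKO cells (edgeR adjusted p 0.000662), and between LPS + IL-4 and CD40L + IL-4 by -1.951 for PU.1 SpiB DKO cells (edgeR adjusted p 0.099, and 0.156 with voom). In naive cells without SpiB, pDC markers rose as Csf2rb and Csf2rb2 did, and their part was not tested.

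For PU.1 SpiB DKO cells Il13ra1 differed from naive cells by -2.389 in CD40L + IL-4 (edgeR adjusted p 0.0416) and -1.918 in LPS + IL-4 (edgeR adjusted p 0.0752), from 4 to 38 counts in the naive libraries, and neither passed with voom (-1.79 and -1.52, adjusted p 0.212 and 0.203). Il2rg differed by 0.5055 in CD40L + IL-4 (edgeR adjusted p 0.104), which did not pass with voom (0.38, adjusted p 0.233), and Ifngr1 by 0.4803 in LPS + IL-4 (edgeR adjusted p 0.0793).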

How the results depend on the processing

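Of 1627 single values under the alternatives other than left-out libraries, 1537 kept their side of the thresholds, 19 lost a call, 71 gained one and 0 called values changed direction. With a library left out, 888 of 960 kept their side, 45 lost a call and 27 gained one. Over both kinds, 88 values that were called in neither setting changed sign. The numbers of receptor genes called moved by more than 1.5 times as follows, and the cause was not tested beyond what each setting itself changes.

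With an adjusted p under 0.15 alone, without the fold and RPKM thresholds, the number was 4 in naive SpiB KO cells (1579 of all 12500 genes tested). Naive PU.1 SpiB DKO cells had 5 relative to PU.1 cKO (2267 of 12500) and 2 relative to SpiB KO (525 of 12500). PU.1 cKO cells had 4 after CD40L + IL-4 (2117 of 12721) and 8 after LPS + IL-4 (2367 of 12445). After LPS + IL-4 PU.1 SpiB DKO cells had 7 relative to control (5968 of 12445), 6 relative to PU.1 cKO (4513 of 12445) and 5 relative to SpiB KO (3735 of 12445). With an adjusted p under 0.05, 0 remained for PU.1 SpiB DKO against SpiB KO in naive cells and 0 for the interaction at each of the 3 stages. Without the filter on low counts, the interaction gave 3 in naive cells, 4 after CD40L + IL-4 and 3 after LPS + IL-4, and SpiB KO after CD40L + IL-4 gave 1. With all 24 libraries in the fit, PU.1 SpiB DKO against SpiB KO gave 0 and the interaction 2 in naive cells, and the interaction gave 0 after LPS + IL-4. DESeq2 gave 2 for the naive interaction. Voom gave 1 for the interaction after CD40L + IL-4, 1 for the SpiB KO effect between CD40L + IL-4 and naive cells, and 1 each for the PU.1 cKO and the PU.1 SpiB DKO effect between the cultures.

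In fits with a replicate block, the interaction gave 4 in naive cells and 4 after LPS + IL-4, and the PU.1 cKO effect gave 6 between LPS + IL-4 and naive cells and 3 between the cultures. The block moved no other number of receptor genes called by over 1.5 times. The correlations between libraries of the same number ran from 0.0918 to 0.25 in naive cells and from -0.0702 to 0.266 after CD40L + IL-4. Whether the replicate number pairs the libraries of these 2 stages is therefore uncertain.

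With each library left out in turn, the numbers ran from 2 to 4 for SpiB KO and from 0 to 1 for PU.1 SpiB DKO against SpiB KO in naive cells, and after CD40L + IL-4 in PU.1 SpiB DKO cells from 1 to 4 relative to PU.1 cKO and from 1 to 3 relative to SpiB KO. For the interaction they ran from 0 to 2 in naive cells, 0 to 4 after CD40L + IL-4 and 0 to 1 after LPS + IL-4.

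Over all genes, the numbers called moved by over 1.5 times as follows. The interaction gave 117 (naive), 149 (CD40L + IL-4) and 184 (LPS + IL-4) by edgeR, 410, 284 and 373 by DESeq2, 1088, 647 and 779 without the filter, 1413, 409 and 1286 with the block, 329, 523 and 84 with all 24 libraries and 41, 46 and 58 at an adjusted p under 0.05, and voom gave 75 after CD40L + IL-4. SpiB KO after CD40L + IL-4 gave 14, and 60 by DESeq2, 9 by voom, 149 without the filter, 47 with the block, 55 with all 24 libraries, 32 with its 4 libraries alone and 7 at an adjusted p under 0.05. PU.1 SpiB DKO relative to SpiB KO gave 246 in naive cells, and 382 without the filter and 379 with the block. Relative to PU.1 cKO it gave 383 after CD40L + IL-4, and 712, 623 and 642 without the filter, with the block and with all 24 libraries. SpiB KO after LPS + IL-4 gave 285, and 179 with all 24 libraries. For differences between stages the block gave 2456 in place of 1238 (PU.1 cKO) and 1128 in place of 294 (SpiB KO, 194 by voom) for CD40L + IL-4 and naive cells, 2433 in place of 868 and 2329 in place of 773 for LPS + IL-4 and naive cells, and 1301 in place of 423 and 4 in place of 0 between the cultures. An adjusted p under 0.05 left 614 of 1050 (PU.1 cKO), 436 of 794 (SpiB KO) and 138 of 246 (PU.1 SpiB DKO relative to SpiB KO) in naive cells, 789 of 1191 (PU.1 cKO) and 172 of 383 (PU.1 SpiB DKO relative to PU.1 cKO) after CD40L + IL-4 and 179 of 285 (SpiB KO) after LPS + IL-4. Without the fold and RPKM thresholds PU.1 cKO gave 2156, 2117 and 2367 (1050, 1191 and 830 with them) at the 3 stages, PU.1 SpiB DKO 4349, 3201 and 5968 (1761, 1738 and 1688), SpiB KO 1579 in naive cells and 638 after LPS + IL-4 (794 and 285), PU.1 SpiB DKO relative to SpiB KO 525, 2596 and 3735 (246, 1448 and 1007), and relative to PU.1 cKO 2267 in naive cells and 4513 after LPS + IL-4 (901 and 1008).

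Differences between stages were refitted with voom and the block alone. Groups of 2 libraries limit every comparison, and depth limits Csf2rb2 (11 to 37 counts a library after CD40L + IL-4) and Il13ra1 (4 to 38 counts in naive cells).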
